A study of Homo sapiens with 12 samples.

Results

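The transcripts described here are those of 52 cell cycle genes, taken by symbol from 60314 named entries in the expression tables of 2 prostate cancer cell lines. They fall into 13 regulators of G1 and of the entry into S phase, 16 DNA replication factors, and 23 genes that act from late S phase through mitosis, with all 52 symbols present in the tables of both lines. C4-2B is a castration-resistant, bone-derived subline of LNCaP, and 22RV1 is a castration-resistant line from a prostate tumour xenograft. Each line had 3 control libraries and 3 libraries from cells given the oligonucleotide 56-mer, which the series title calls an aptamer. In both groups wild-type cells were kept for 48 h in glutamine-free RPMI-1640 with 5% serum to which L-glutamine was added back at 2 mM. The 56-mer groups also received the oligonucleotide at 50 nM, so that every library, controls included, had glutamine. The series text calls the 3 libraries of a group biological triplicates and the labels give no culture day or pairing, so the p-values measure the spread between these libraries.

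In G1, D-type cyclins activate the kinases CDK4 and CDK6, which phosphorylate the retinoblastoma protein RB1 and release E2F transcription factors. Cyclin E with CDK2 then carries cells into S phase, while the inhibitors encoded by CDKN1B and CDKN2A hold these kinases back. E2F factors switch on the replication genes, whose products load the MCM helicase on origins and build the replication fork. Mitotic genes are switched on later, mainly through the MuvB complex with B-MYB and FOXM1. MuvB acts at a promoter element called the cell cycle homology region, which often has CCAAT boxes nearby.

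Promoter stretches show how the 3 groups differ in sequence. RefSeq windows (GRCh38.p14) from 250 bases before to 50 bases after a transcription start were given for 40 of the 52 genes, and CCND1, CCND2, CCNE2, CDK2, MCM4, MCM5, AURKA, TTK, BIRC5, TPX2, UBE2C and FOXM1 were without one. Both strands were searched for an E2F site (TTTCCCGC, TTTGCCGC, TTTCGCGC or TTTGGCGC), for the cell cycle homology region (TTTGAA or TTCGAA) and for a CCAAT box (CCAAT), with overlapping matches of a motif counted once. The 150 bases before the start are shown for MCM7 and MCM6, subunits of the replicative helicase with an E2F match, and for CCNB2, CDC20 and PLK1, mitotic genes with a homology region match beside CCAAT boxes. CDKN1B and FEN1 are shown because their 56-mer changes had the smallest p-values in the comparison of the lines. These genes were picked after the matches were known. Capitals mark the matches, a CCAAT box on the opposite strand reads ATTGG, and an E2F site on the opposite strand begins with GCG.
MCM7: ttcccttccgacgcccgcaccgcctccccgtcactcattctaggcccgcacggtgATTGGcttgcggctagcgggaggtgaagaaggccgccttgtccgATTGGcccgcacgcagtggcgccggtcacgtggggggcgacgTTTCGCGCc
MCM6: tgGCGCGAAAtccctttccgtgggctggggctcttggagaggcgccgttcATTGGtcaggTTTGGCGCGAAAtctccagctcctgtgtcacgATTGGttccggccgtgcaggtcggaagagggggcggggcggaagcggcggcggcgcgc
CCNB2: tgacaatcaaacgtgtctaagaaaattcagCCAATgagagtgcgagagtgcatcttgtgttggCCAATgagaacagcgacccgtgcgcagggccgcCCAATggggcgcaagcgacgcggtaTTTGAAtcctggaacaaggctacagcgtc
CDC20: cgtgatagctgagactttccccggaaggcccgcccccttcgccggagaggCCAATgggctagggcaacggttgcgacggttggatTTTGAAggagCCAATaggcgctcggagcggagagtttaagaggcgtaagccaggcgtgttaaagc
PLK1: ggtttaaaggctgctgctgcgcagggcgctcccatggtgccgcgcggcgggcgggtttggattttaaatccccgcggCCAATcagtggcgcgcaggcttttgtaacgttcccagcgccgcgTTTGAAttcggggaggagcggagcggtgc
CDKN1B: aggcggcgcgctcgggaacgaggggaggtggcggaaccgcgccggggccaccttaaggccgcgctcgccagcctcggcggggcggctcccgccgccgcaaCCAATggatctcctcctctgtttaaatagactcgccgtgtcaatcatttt
FEN1: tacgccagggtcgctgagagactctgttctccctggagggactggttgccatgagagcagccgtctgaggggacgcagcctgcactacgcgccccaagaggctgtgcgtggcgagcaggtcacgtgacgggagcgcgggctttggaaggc

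The stretches run 5′ to 3′ on each gene's own strand. They lie at chr7:100101398-100101547 (MCM7, minus strand), chr2:135876444-135876593 (MCM6, minus strand), chr15:59104996-59105145 (CCNB2, plus strand), chr1:43358831-43358980 (CDC20, plus strand), chr16:23678739-23678888 (PLK1, plus strand), chr12:12717218-12717367 (CDKN1B, plus strand) and chr11:61792761-61792910 (FEN1, plus strand). In CCNB2 and in PLK1 the homology region begins 29 bases before the start, and the nearest CCAAT box lies upstream of it, at 54 and 73 bases. In CDC20 the homology region at 65 bases before the start has CCAAT boxes on both sides, at 100 and at 55 bases. The FEN1 stretch holds none of the motifs in these letters.

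An E2F match was present in 10 of 14 replication genes with a window, in 2 of 9 G1 genes (E2F1 and E2F2) and in 2 of 17 mitotic genes (CDK1 and NUSAP1). Over all 27305 genes with a window the share was 3.99%. The homology region was matched in 12 of 17 mitotic genes, in 1 of 14 replication genes (MCM6) and in 0 of 9 G1 genes, against 19.5% of all genes. CCAAT boxes were found in 15 of 17 mitotic genes, 10 of 14 replication genes and 3 of 9 G1 genes, against 39.7% of all genes. A homology region together with a CCAAT box was present in 11 of 17 mitotic genes and in 7.85% of all genes. In lists of further genes, E2F matches were present in 14 of 34 replication genes, 2 of 36 mitotic genes and 4 of 15 G1 genes, and homology regions in 3, 29 and 4 of them. For homology regions the further G1 genes (26.7%) lay near the 19.5% of all genes, and the 9 described here are too few to set the 2 lists apart. A match of letters is a description of the window and does not show that a factor binds there.

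**Figure D1:**
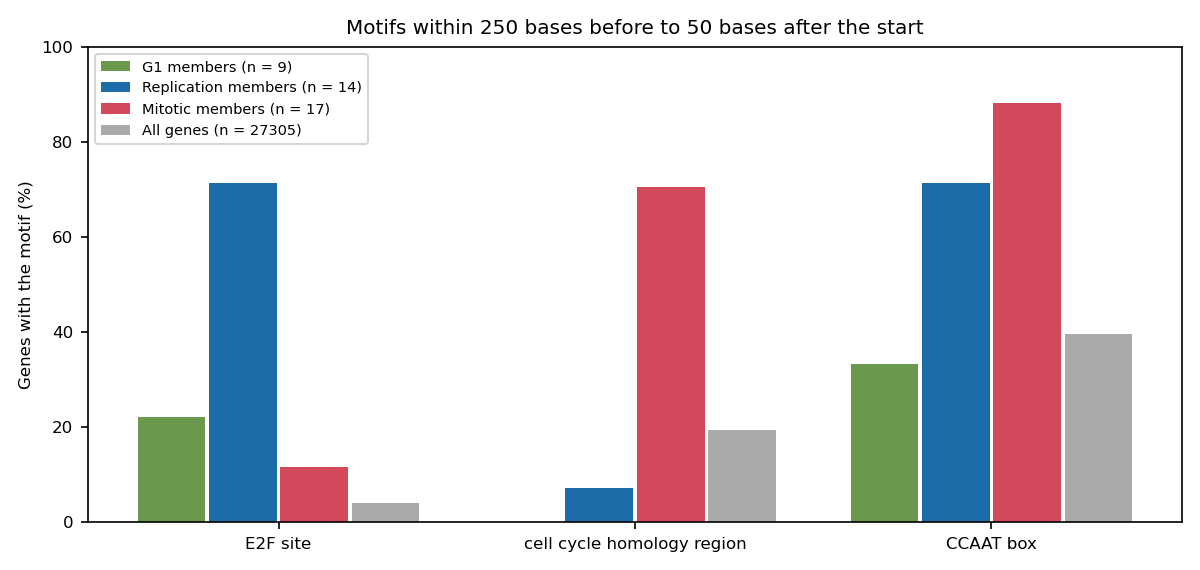
Share of genes, in percent, with an E2F site, a cell cycle homology region or a CCAAT box between 250 bases before and 50 bases after the start, for the G1, replication and mitotic genes with a RefSeq window and for all 27305 genes with one (bars). E2F matches stand highest in the replication genes (71.4%) and homology regions in the mitotic genes (70.6%).

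The libraries held between 8847368 and 13740386 recovered reads. The prostate luminal markers KLK3, KLK2, FOLH1, HOXB13, KRT8, KRT18 and EPCAM had reads in every library, with KRT8 at 611 to 672 CPM (recovered reads scaled to 1 common total per library) in C4-2B and 682 to 818 in 22RV1, and KLK3 at 527 to 588 and 91.1 to 117. Summed over 12 markers of immune, endothelial, stromal, basal and neuroendocrine cells, the level was 47.0 to 70.5 in C4-2B and 118 to 150 in 22RV1, with overlapping ranges for control and 56-mer in each line. The highest of these 12 in 22RV1 were the neuroendocrine genes SYP (52.8 to 70.4) and CHGA (30.8 to 45.3), at most 3.23 and 0.652 in C4-2B. The stromal gene COL1A1 was at 21.8 to 35.3 in C4-2B and 19.7 to 29.4 in 22RV1. The basal markers TP63 and KRT5 were at 0 in all 12 libraries. Deviations of the tested cell cycle genes were also taken from the mean of all libraries of the line, controls and 56-mer. The library 56-mer 1 stood apart in 22RV1, where they followed GC content (Spearman rho −0.641 across 51 genes of 1 library) and transcript length (0.393). In C4-2B the deviations followed transcript length in 56-mer 1 (−0.358 across 50 genes), near the size of the 22RV1 value for length. They followed GC content in 56-mer 3 (0.360) and control 3 (−0.324). No correlation in C4-2B was as large as that with GC content in 22RV1 56-mer 1. These correlations are descriptions across genes, which share the library, and the group medians are given with and without 56-mer 1.

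The control libraries show which cell cycle transcripts each line carries. The widest gaps of single genes were those of the G1 regulators CDK6, CDKN2A and cyclin D1, all higher in 22RV1, as were RB1 and E2F2. Most replication and mitotic transcripts stood moderately higher in C4-2B. The median log2 ratio of 22RV1 over C4-2B was 1.14 for G1 and −0.58 for mitotic genes. With TMM scaling, explained below, it was 0.80 and −0.92, so the G1 group was not the further from 0 on both scales. Over the genes tested in both lines it was 0.29 (−0.046 with TMM scaling). Levels across lines are given as CPM, without a test, because the tables of the lines were normalized separately. In bulk RNA, more cells in a phase and more RNA per cell cannot be told apart. The 3 control libraries of 1 line lay wholly above those of the other for 47 of the 52 genes. C4-2B was the higher line for 27 (51.9%, against 25.0% of 21647 genes) and 22RV1 for 20 (38.5%, against 52.7%). With TMM scaling, which fits 1 factor per library to the bulk of genes and lowered the 22RV1 over C4-2B ratio by 0.34 on the log2 scale at the median gene, the counts were 30 (31.8% of all genes) and 14 (44.5%). A difference of at least 2-fold was present for 9 genes in each direction, against 15.3% of all genes higher in C4-2B and 42.9% higher in 22RV1. With TMM scaling it was present for 17 genes higher in C4-2B and 5 higher in 22RV1, and the share of all genes on that scale was not computed.

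CCND1, which encodes cyclin D1, had 320, 335 and 355 CPM in the C4-2B controls and 2408, 2268 and 2347 in the 22RV1 controls. The 22RV1 libraries were 6.95-fold higher in the mean (5.49-fold with TMM scaling). Its partner kinase CDK6 had 0.547, 0.293 and 0.881 CPM in C4-2B, 21 reads in all, and 152, 151 and 135 in 22RV1. CDK4, the other cyclin D kinase, was at 219, 199 and 194 in C4-2B and at 183 in each 22RV1 library. The lines therefore differed in CDK6 by 255-fold (201-fold with TMM scaling) and in CDK4 by 1.12-fold (1.41-fold with TMM scaling), in opposite directions. In the GENCODE 29 annotation, 43.2% of the exon bases of CDK4 lie opposite exons of TSPAN31, and whether the counting used strand is not given in the sources used here.

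CCND2 (cyclin D2) was near absent from both lines, with 3 reads in the 3 C4-2B controls and 2 in the 3 22RV1 controls. CCND3 (cyclin D3) had 59.8, 77.4 and 54.5 CPM in C4-2B against 50.6, 42.7 and 42.7 in 22RV1, so that its lowest C4-2B library lay just above the highest 22RV1 library. CDKN2A, whose locus encodes p16INK4a and p14ARF in different transcripts that the symbol does not separate, had 1.46, 0 and 0.587 CPM in C4-2B and 54.7, 58.8 and 52.2 in 22RV1. RB1, the target of the cyclin D kinases, was at 24.4, 17.8 and 20.4 in C4-2B and 65.8, 70.5 and 65.7 in 22RV1, a 3.23-fold difference. CDKN1B, which encodes the inhibitor p27Kip1, was at 102, 99.5 and 96.6 in C4-2B and 219, 210 and 229 in 22RV1. The 3 inhibitors or brakes among the G1 genes, CDKN2A, RB1 and CDKN1B, were all higher in 22RV1, also with TMM scaling. So were the activators CCND1, CDK6, CDK2, E2F2 and CCNE1. By plain CPM 9 of the 13 G1 genes stood apart with 22RV1 higher, against 52.7% of all genes.

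The activating E2F genes went in opposite directions. E2F1 had 118, 118 and 126 CPM in C4-2B and 67.7, 62.1 and 63.4 in 22RV1, and E2F2 had 22.7, 14.1 and 19.2 in C4-2B and 76.9, 76.6 and 80.8 in 22RV1. For the cyclin E genes the gap was small: CCNE1 was at 10.7, 10.1 and 8.29 in C4-2B against 15.1, 13.9 and 14.9 in 22RV1. CCNE2 was at 32.2, 26.0 and 29.4 against 42.6, 39.5 and 43.6, and its groups overlapped with TMM scaling. CDK2, the cyclin E partner, averaged 55.9 ± 3.70 in C4-2B and 128 ± 9.70 in 22RV1 (SD, n = 3). Over the 13 G1 genes the median log2 ratio of 22RV1 over C4-2B was 1.14 (0.80 with TMM scaling), beside 0.29 (−0.046) over the genes tested in both lines.

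Replication factors were closer between the lines by plain CPM. None of the 16 differed 2-fold on that scale. With TMM scaling 5 were at least 2-fold higher in C4-2B (RFC4, MCM5, MCM7, CDT1 and CDC45), a count without a share of all genes beside it. By CPM, 11 stood apart with C4-2B higher, 4 with 22RV1 higher, and CDC6 overlapped. The lowest ratios of 22RV1 over C4-2B were those of RFC4, a clamp loader subunit, at 78.5, 79.6 and 83.7 CPM in C4-2B against 43.4, 43.3 and 35.1, and of the helicase subunit MCM5, at 145, 156 and 155 against 93.9, 66.0 and 89.1. The highest were those of MCM4, at 130, 123 and 131 against 239, 254 and 261, and of POLA1, the catalytic subunit of DNA polymerase alpha, at 25.5, 28.5 and 25.5 against 44.2, 42.8 and 39.5. The 6 MCM subunits form 1 hexamer, yet MCM4 and MCM6 stood higher in 22RV1 while MCM2, MCM3, MCM5 and MCM7 stood higher in C4-2B. For MCM6 the ratio was 1.17 and turned to 0.926 with TMM scaling, with overlapping groups.

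The origin licensing factor CDC6 had 58.8, 59.4 and 75.8 CPM in C4-2B and 61.2, 60.6 and 61.0 in 22RV1. MCM2 had 188, 191 and 206 against 134, 122 and 138, and 23.6% of its exon bases lie opposite other genes. PCNA, the sliding clamp, had 171, 150 and 166 against 134, 140 and 140, with C4-2B 1.18-fold higher. The remaining replication genes higher in C4-2B (CDT1, MCM3, MCM7, GINS2, CDC45, ORC1 and FEN1) had ratios of 22RV1 over C4-2B from 0.586 to 0.829. UHRF1, a maintenance methylation factor, was 1.15-fold higher in 22RV1, and 0.907 with TMM scaling. The median log2 ratio over the 16 genes was −0.44 (−0.78 with TMM scaling).

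Mitotic transcripts held the widest gaps in favour of C4-2B. CDC25C, a phosphatase that activates CDK1, had 31.4, 36.6 and 33.5 CPM in C4-2B and 9.52, 7.35 and 8.83 in 22RV1. CDC20, an activator of the anaphase-promoting complex, had 199, 173 and 182 against 54.9, 52.4 and 61.1. The mitotic kinase gene PLK1 was at 136, 106 and 121 against 34.8, 42.6 and 37.8, and cyclin B1 (CCNB1) at 177, 187 and 169 against 63.5, 63.5 and 62.6. In each of these the lines were separated by at least 2.81-fold in the mean. CDK1 itself was nearer, at 205, 192 and 208 against 113, 114 and 107, as was FOXM1, the transcription factor of late cell cycle genes, at 207, 198 and 209 against 136, 128 and 146.

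Other mitotic transcripts stood higher in 22RV1. BUB1B, a spindle checkpoint kinase gene, had 25.8, 21.7 and 23.9 CPM in C4-2B and 58.6, 54.1 and 51.0 in 22RV1. TOP2A, which encodes topoisomerase II alpha, had 121, 130 and 131 against 282, 296 and 276, and the proliferation marker MKI67 had 147, 152 and 165 against 275, 307 and 286. CCNA2, CENPE, KIF11 and CENPF were 1.13- to 1.72-fold higher in 22RV1. With TMM scaling CCNA2 and KIF11 overlapped and CENPF stood higher in C4-2B. The other mitotic genes with C4-2B higher (CCNB2, AURKA, AURKB, BIRC5, KIF20A, TPX2 and UBE2C) had ratios of 22RV1 over C4-2B from 0.339 to 0.895. BUB1 and TTK overlapped between the lines, and BUB1 stood higher in C4-2B with TMM scaling. The median log2 ratio over the 23 genes was −0.58 (−0.92 with TMM scaling), and the 2 most used proliferation markers, MKI67 and TOP2A, lay on the other side of 0 (log2 0.90 and 1.16).

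NUSAP1, a spindle microtubule protein gene, was counted at 0 to 23 reads per library. In GENCODE 29, 62.2% of its exon bases are shared on the same strand with AC087721.2, which had 0 reads in all 12 libraries, and the level of NUSAP1 is uncertain for that reason.

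**Figure D2:**
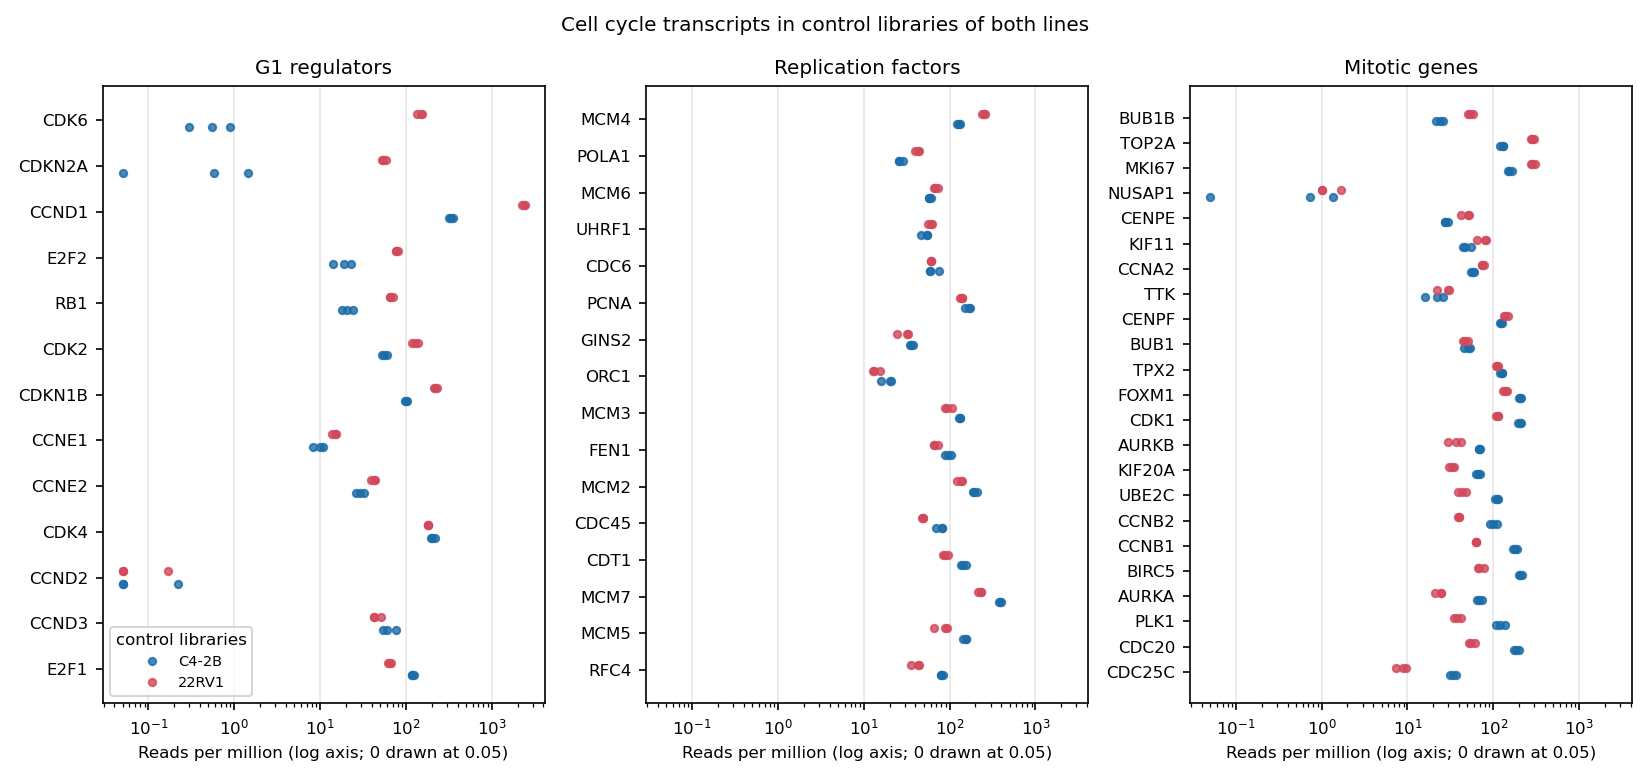
CPM (log axis) of each cell cycle gene in the 3 control libraries of C4-2B and of 22RV1 (points), with genes ordered by the ratio of the lines within G1 regulators, replication factors and mitotic genes, and values of 0 drawn at 0.05. CDK6 and CDKN2A lie far higher in 22RV1 and CDC25C, CDC20 and PLK1 higher in C4-2B.

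Per length, the order of the genes also differed between the lines. As RPKM, which divides CPM by the exon length (from GENCODE 29) in kilobases, the highest in the C4-2B controls were PCNA (110 ± 7.31), CDC20 (90.6 ± 6.33), MCM7 (88.3 ± 1.42) and UBE2C (85.8 ± 3.82; SD, n = 3). PCNA stood above the next gene by more than the spread, and CDC20, MCM7 and UBE2C did not differ beyond theirs. In the 22RV1 controls CCND1 led at 485 ± 14.6, above PCNA (93.6 ± 2.30) and CDKN1B (78.0 ± 3.34), and CDC20 was at 27.5 ± 2.20. Summed over each group, the 13 G1 genes took 960 ± 10.6 CPM in C4-2B and 3385 ± 76.5 in 22RV1, of which CCND1 averaged 337 and 2341. The 16 replication genes took 1809 ± 34.8 and 1448 ± 48.9, and the 23 mitotic genes 2303 ± 46 and 1812 ± 23.6. The ratio of mitotic over replication reads was 1.27 ± 0.00761 in C4-2B and 1.25 ± 0.0546 in 22RV1, so the lines had nearly the same balance of these groups while their G1 totals differed.

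In C4-2B the comparison asks which cell cycle transcripts differ when 56-mer is added. None of the 50 tested genes passed the threshold, an adjusted p under 0.05 in limma on log2 of the normalized count plus 1, with CCND2 and CDK6 below the filter. The values nearest to it were higher MCM7 and lower CDKN1B and CDK2 with 56-mer. Their ratios of 56-mer over control were 1.18, 0.802 and 0.784. Over all 16657 genes tested in this line, 0.0660% passed. Below 0.05 before adjustment were 3 genes with higher values (MCM7, BIRC5 and MCM5) and 2 with lower values (CDKN1B and CDK2), or 10% of the tested cell cycle genes against 8.92% of all genes, which is near the background. On the recovered reads edgeR passed 0 of the 50, with 3 higher and 3 lower at an unadjusted p under 0.05. DESeq2 passed 0 of the 24 for which it gave an adjusted p and gave none for the other 26, CDK2 among them, with 3 higher and 2 lower at an unadjusted p under 0.05.

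MCM7 had 4608, 4445 and 4500 normalized read counts in the C4-2B controls and 5543, 5289 and 5199 with 56-mer. Every 56-mer library lay above every control, with a log2 change of 0.24 ± 0.068 (SE, n = 3 per group, limma adjusted p = 0.317). The adjusted p was 0.0522 with DESeq2 and ranged up to 0.776 over 16 alternatives. CDKN1B had 1201, 1162 and 1115 in controls and 1005, 899 and 888 with 56-mer. Its groups did not overlap either, and the log2 change was −0.32 ± 0.10 (limma adjusted p = 0.397, 0.0922 to 0.776 over the alternatives). CDK2 had 706, 642 and 610 in controls and 573, 496 and 466 with 56-mer. Its log2 change was −0.35 ± 0.13 (limma adjusted p = 0.456), and 16.8% of its exon bases lie opposite PMEL and AC025162.1.

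Among the other G1 genes, CCND3 had 702, 904 and 629 in controls and 830, 830 and 925 with 56-mer, overlapping groups. The log2 changes of the 8 G1 genes with an unadjusted p of at least 0.05, leaving out CDKN2A, lay between −0.14 and 0.22. CCND1 was estimated narrowly, with 3762, 3909 and 4104 against 3630, 4138 and 4104 and a 95% interval of −0.15 to 0.17. CDKN2A had 17.1, 0 and 6.78 normalized counts in controls and 29.4, 1.91 and 18.5 with 56-mer, too few to bound its change (interval −1.39 to 3.8). RB1 had 287, 208 and 236 against 293, 239 and 274, CDK4 2579, 2327 and 2234 against 2669, 2038 and 2410, and E2F1 1390, 1374 and 1452 against 1535, 1400 and 1371. The cyclin E genes were CCNE1 at 126, 117 and 95.7 against 163, 73.5 and 155, and CCNE2 at 379, 303 and 339 against 281, 373 and 278. In each of these 5 genes the groups overlapped. CDK6 had 6.42, 3.42 and 10.2 against 9.80, 5.72 and 14.6 and was not tested.

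For the replication genes in C4-2B, MCM5 had 1700, 1828 and 1794 in controls and 2003, 1924 and 2184 with 56-mer. The groups did not overlap, with a log2 change of 0.20 ± 0.088 (limma adjusted p = 0.520). MCM3, at 1557, 1538 and 1465 against 1681, 1688 and 1641, was also apart. The flap endonuclease gene FEN1 had 1210, 1118 and 1011 against 1370, 1144 and 1322, and its groups overlapped. MCM2, MCM4 and MCM6 overlapped too, with log2 changes of −0.063, 0.011 and 0.14, so that the helicase subunits did not all lie on 1 side of 0. PCNA had 2006, 1755 and 1917 against 2102, 1518 and 1795 (interval −0.29 to 0.14). MCM2 read 2211, 2237 and 2375 against 2060, 2273 and 2199, and the licensing factor CDC6 691, 695 and 875 against 802, 819 and 702. The 14 replication genes other than MCM7 and MCM5 had log2 changes between −0.16 and 0.20.

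Of the mitotic genes, BIRC5, which encodes survivin, a subunit of the chromosomal passenger complex, had 2534, 2390 and 2282 in controls and 2938, 2653 and 2663 with 56-mer. The groups were apart at a log2 change of 0.20 ± 0.082 (limma adjusted p = 0.50), and without the library 56-mer 1 the change was 0.15 and its unadjusted p was no longer under 0.05. CDC20 had 2335, 2025 and 2103 against 2396, 2470 and 2385, apart, at 0.17 ± 0.084 (limma adjusted p = 0.573). TPX2, a spindle assembly factor gene, had 1478, 1394 and 1450 against 1622, 1739 and 1553, apart, at 0.18 ± 0.092 (limma adjusted p = 0.573). AURKB had 802, 786 and 812 against 897, 1064 and 829, apart as well. The lowest estimate was that of TTK, a checkpoint kinase gene, at −0.41 ± 0.21, with 308, 187 and 252 against 209, 176 and 167, and overlapping groups. MKI67 was level, with 1732, 1777 and 1905 against 1726, 1804 and 1784 (interval −0.21 to 0.15), and TOP2A had 1423, 1514 and 1509 against 1579, 1209 and 1313. Without 56-mer 1, whose TOP2A value was the highest of the 6, the TOP2A log2 change went from −0.12 to −0.23 (limma adjusted p = 0.308).

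Over the 50 tested genes, the groups were apart with 56-mer higher for 8 (MCM3, MCM5, MCM7, CDC20, AURKB, BIRC5, KIF20A and TPX2), or 16.0% against 7.59% of all genes, and with 56-mer lower for 2 (CDKN1B and CDK2), or 4% against 7.08%. These counts depend on the scale. The normalized totals of the 56-mer libraries, 1.193e+07 to 1.21e+07, all lay above those of the controls, 1.154e+07 to 1.175e+07. With equal column totals 950 of 16657 genes were apart with 56-mer higher and 1570 lower, and the cell cycle genes apart were not counted. The median log2 change was 0.029 for the 11 tested G1 genes, 0.036 for the 16 replication genes and 0.045 for the 23 mitotic genes, beside −0.011 for all genes tested. Single libraries moved these medians. Without 56-mer 1 they were −0.047, 0.037 and 0.00080. Over all libraries left out in turn they ran from −0.047 (56-mer 1) to 0.094 (56-mer 2) for G1, from 0.0075 (control 1) to 0.093 (control 3) for replication, and from 0.00080 (56-mer 1) to 0.079 (control 3) for mitotic genes. The number of genes with an unadjusted p under 0.05 was 5 in all, 11 without 56-mer 1 (4 higher and 7 lower) and 3 without control 3. For all genes it was 1486 of 16657, 1880 of 16322 without 56-mer 1 and 1024 of 16220 without control 3. The 95% intervals of the tested genes had a median half-width of 0.23 on the log2 scale, so smaller changes of a typical gene were within its error with 3 libraries per group. With equal column totals the G1 and replication medians were −0.012 and −0.0052, below 0. On that scale 1 cell cycle gene was higher and 3 were lower at an unadjusted limma p under 0.05, beside 522 and 1001 of all genes.

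**Figure D3:**
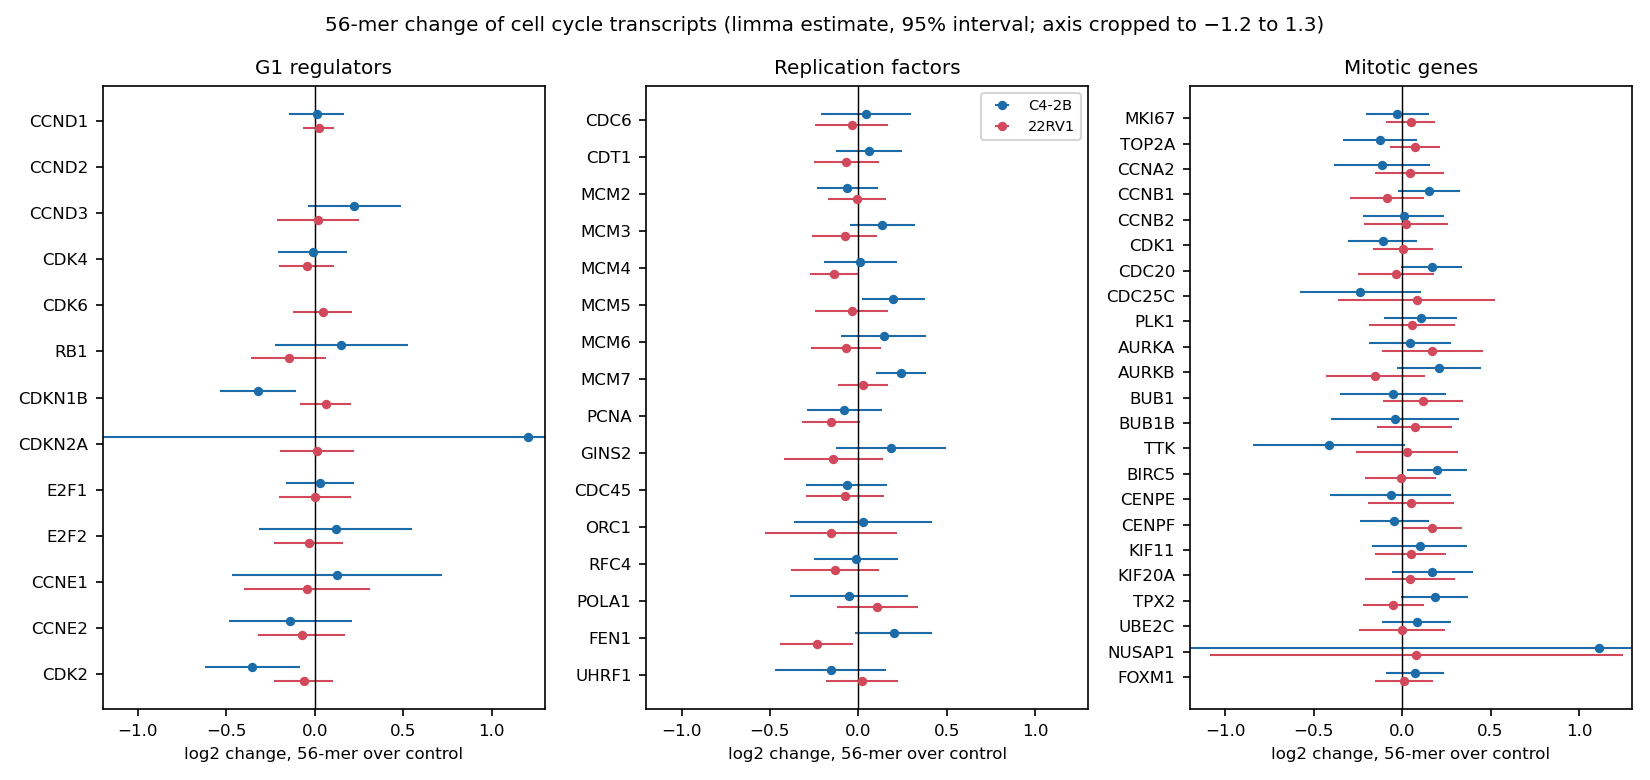
Log2 change with 56-mer over control and its 95% interval (limma) for each cell cycle gene in C4-2B and in 22RV1, by group, on an axis that ends at −1.2 and 1.3, so that the intervals of CDKN2A in C4-2B and of NUSAP1 in C4-2B run past it. Genes without a point were not tested, and most intervals include 0.

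In 22RV1 the values of most replication genes lay slightly lower with 56-mer, and again no cell cycle gene passed. Most mitotic genes lay slightly higher, with a median that was below 0 without the library 56-mer 1. Of 51 tested genes 0 had a limma adjusted p under 0.05 (0.00975% of 20517 genes passed), and CCND2 was not tested. At an unadjusted p under 0.05 there was 1 gene with lower values, FEN1, and 1 with higher values, CENPF, or 3.92% against 3.91% of all genes. edgeR gave 1 and 1, and DESeq2 1 higher and 3 lower, with 0 passing in both.

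FEN1 had 781, 787 and 865 normalized read counts in the 22RV1 controls and 639, 726 and 701 with 56-mer. All 3 libraries with 56-mer lay below the controls, with a log2 change of −0.24 ± 0.10 (SE, n = 3 per group, limma adjusted p = 1). Without 56-mer 1, the lowest library, the change was −0.18 and its unadjusted p was no longer under 0.05. MCM4 had 2858, 3047 and 3124 in controls and 2821, 2761 and 2629 with 56-mer. PCNA had 1602, 1679 and 1668 against 1472, 1417 and 1560. CDC45, a part of the fork helicase, had 584, 585 and 571 against 545, 557 and 546. All of these were apart with 56-mer lower, at log2 changes of −0.14 ± 0.070 for MCM4, −0.15 ± 0.081 for PCNA and −0.077 ± 0.11 for CDC45. Together with FEN1 they were the 4 genes apart in that direction among the 51, or 7.84% against 4.58% of all genes.

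The estimates of 13 of the 16 replication genes were below 0 (81.3%, against 50.6% of all genes tested), with a median of −0.074 beside −0.0026 for all genes. The exceptions were MCM7 (0.026), UHRF1 (0.018) and POLA1 (0.11). The median was −0.080 without 56-mer 1, −0.067 when each library was corrected for its trend with GC content and length, and between −0.096 and −0.049 when any 1 library was left out. MCM2, which had 1610, 1468 and 1644 against 1500, 1563 and 1624, and CDC6, with 733, 728 and 729 against 765, 712 and 660, overlapped between groups. Each single estimate is small beside its interval, whose half-width had a median of 0.20 for these genes.

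Among the mitotic genes of 22RV1, CENPF, a kinetochore and nuclear matrix protein gene, had 1756, 1627 and 1593 in controls and 2110, 1783 and 1727 with 56-mer. The groups overlapped, at a log2 change of 0.17 ± 0.083 (limma adjusted p = 1), and without 56-mer 1, its highest library, the change was 0.082 and its unadjusted p was no longer under 0.05. AURKA, a spindle pole kinase gene, had 252, 293 and 295 against 330, 305 and 309 and was the only gene apart with 56-mer higher, 1.96% of the tested genes against 4.45% of all genes. AURKB, the kinase of the chromosomal passenger complex, had 352, 439 and 503 against 321, 381 and 463. MKI67 had 3290, 3685 and 3419 against 3805, 3518 and 3418, and TOP2A had 3373, 3555 and 3304 against 3990, 3390 and 3404. In both of these the 56-mer 1 library was the highest of the 6, and without it their log2 changes went from 0.048 and 0.072 to 0.0031 and −0.0051. The median over the 23 mitotic genes was 0.044, and −0.0042 without 56-mer 1. In that library the deviations followed GC content and length, as given above, and the part of this in the mitotic median was tested only by leaving it out and by the correction, which gave 0.025.

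The other mitotic genes named here showed small and overlapping differences in 22RV1. CCNB1 had 760, 762 and 748 in controls and 779, 623 and 744 with 56-mer. CDK1 had 1352, 1371 and 1273 against 1363, 1272 and 1379. PLK1 had 417, 512 and 451 against 475, 433 and 526, and FOXM1 had 1624, 1542 and 1743 against 1560, 1638 and 1748. Their log2 changes lay between −0.087 and 0.056, and those of all 21 mitotic genes other than CENPF and NUSAP1 between −0.15 and 0.17. In C4-2B the same genes read 2078, 2189 and 1953 against 2402, 2350 and 2156 for CCNB1, and 2408, 2249 and 2401 against 2467, 1860 and 2258 for CDK1. PLK1 read 1596, 1242 and 1398 against 1597, 1443 and 1494, and FOXM1 2436, 2317 and 2408 against 2529, 2570 and 2433, again with overlapping groups.

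The G1 regulators differed little in 22RV1. CCND1 had 28829, 27245 and 28055 in controls and 29256, 27945 and 28190 with 56-mer, with an interval of −0.065 to 0.11 on the log2 scale. CDK6 had 1823, 1811 and 1619 against 2032, 1763 and 1635, and CDK4 2188, 2200 and 2184 against 2238, 1884 and 2264. RB1 had 788, 847 and 786 against 844, 685 and 666, the G1 gene with the smallest unadjusted p. CDKN1B had 2619, 2527 and 2738 against 2618, 2711 and 2898, and CDKN2A 655, 707 and 624 against 643, 711 and 649. CDK2 had 1426, 1523 and 1654 against 1460, 1431 and 1506, E2F1 811, 746 and 758 against 758, 705 and 861, CCNE1 181, 166 and 178 against 153, 187 and 170, and CCNE2 510, 474 and 521 against 562, 400 and 480. Control and 56-mer libraries overlapped for all 12 tested G1 genes, and the median log2 change was −0.017 (0.0080 without 56-mer 1). The number of cell cycle genes with an unadjusted p under 0.05 was 2 in this line. It was 1 without control 2, 0 without control 3, 3 without control 1, 56-mer 1 or 56-mer 3, and 5 (1 higher and 4 lower) with the correction for GC content and length. For all genes it was 803 of 20517, and 682 of 20018 without control 2, 668 of 20028 without control 3 and 632 of 20049 without control 1. Without 56-mer 1 it was 1002 of 20070, without 56-mer 3 1231 of 20005, and with the correction 1057 of 20517.

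**Figure D4:**
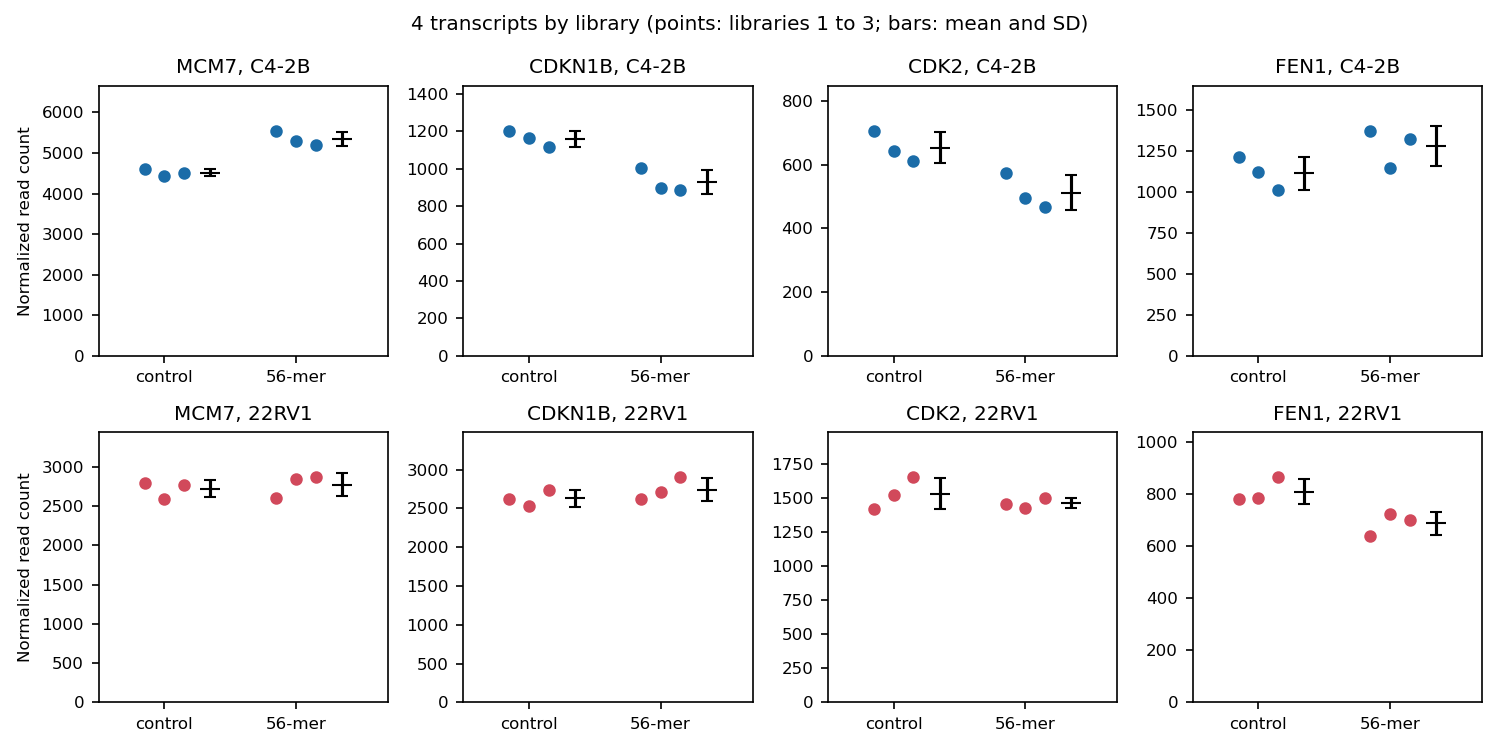
Normalized read counts of MCM7, CDKN1B, CDK2 and FEN1 in each library (points) with mean and SD (bars), control and 56-mer, in C4-2B (upper row) and 22RV1 (lower row), each axis starting at 0. In C4-2B the groups are apart for MCM7, CDKN1B and CDK2, and in 22RV1 for FEN1.

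An interaction term over the 12 libraries asked whether 56-mer changed a transcript differently in the 2 lines. None of the 50 genes tested in both lines passed (0% of 15527 genes did), and 3 had an unadjusted p under 0.05, or 6% against 7.90% of all genes, below the background. CDKN1B had the smallest p: its log2 change was 0.38 ± 0.11 higher in 22RV1 than in C4-2B (SE, limma adjusted p = 0.534, interval 0.14 to 0.62). FEN1 followed: its change was 0.20 in C4-2B but −0.24 in 22RV1, a difference of −0.44 ± 0.14 (limma adjusted p = 0.534). For MCM7 the difference was −0.22 ± 0.092 (limma adjusted p = 0.618). MCM3, TPX2, CCNB1 and AURKB, next in their groups, differed by −0.21, −0.23, −0.24 and −0.36, and CDK2 by 0.29, all with limma adjusted p of at least 0.637. edgeR counted 1 and 2 and DESeq2 1 and 3 with higher and lower differences at an unadjusted p under 0.05. In edgeR 0 of the 50 passed and in DESeq2 0 of the 49 with an adjusted p.

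The median difference, 22RV1 minus C4-2B, was −0.14 for the replication genes, with 13 of 16 below 0 (81.3%, against 48.2% of all genes), beside 0.013 over all genes tested in both lines. It was −0.15 without C4-2B 56-mer 1 and −0.17 without 22RV1 56-mer 1, and between −0.18 and −0.12 when any 1 library was left out. For G1 genes the median was −0.036 and for mitotic genes 0.016, and each changed sign when single libraries were left out. The G1 median was 0.011 without C4-2B 56-mer 1 and −0.068 without 22RV1 56-mer 1, and the mitotic median 0.049 and −0.022. The number of cell cycle genes with an unadjusted p under 0.05 was 3, against 1227 of 15527 genes. It was 6 without C4-2B 56-mer 1 (1616 of 15322 genes). It was 5 without C4-2B 56-mer 3 (1413 of 15287), 22RV1 control 2 (995 of 15423), 22RV1 56-mer 1 (912 of 15433) or 22RV1 56-mer 3 (1308 of 15409).

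By library, the median deviation of the replication genes from the control mean of the line was 0.12, 0.091 and −0.0056 in C4-2B 56-mer 1, 2 and 3. In 22RV1 it was −0.064, −0.038 and −0.11 in the 56-mer libraries against 0.022, −0.035 and 0.036 in the controls. The lowest control thus lay just above the highest 56-mer library of 22RV1. The mitotic median was 0.15 in C4-2B 56-mer 1 and 0.086 in 22RV1 56-mer 1, the highest library of each line, and 0.039 or lower in the other 56-mer libraries. As summed CPM, replication genes took 1341, 1378 and 1375 in the 22RV1 56-mer libraries and 1456, 1395 and 1492 in the controls. In C4-2B they took 1888, 1853 and 1872 with 56-mer and 1813, 1773 and 1842 in controls, so the totals of this group lay on opposite sides in the lines. A total weighs abundant genes such as MCM7 most. With equal column totals the median log2 change over the replication genes was −0.0052 in C4-2B and −0.090 in 22RV1, below 0 in both lines. The ratio of mitotic over replication reads was 1.44, 1.29 and 1.33 in the 22RV1 56-mer libraries against 1.23, 1.32 and 1.22 in controls. In C4-2B it was 1.28, 1.24 and 1.22 against 1.28, 1.27 and 1.27.

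**Figure D5:**
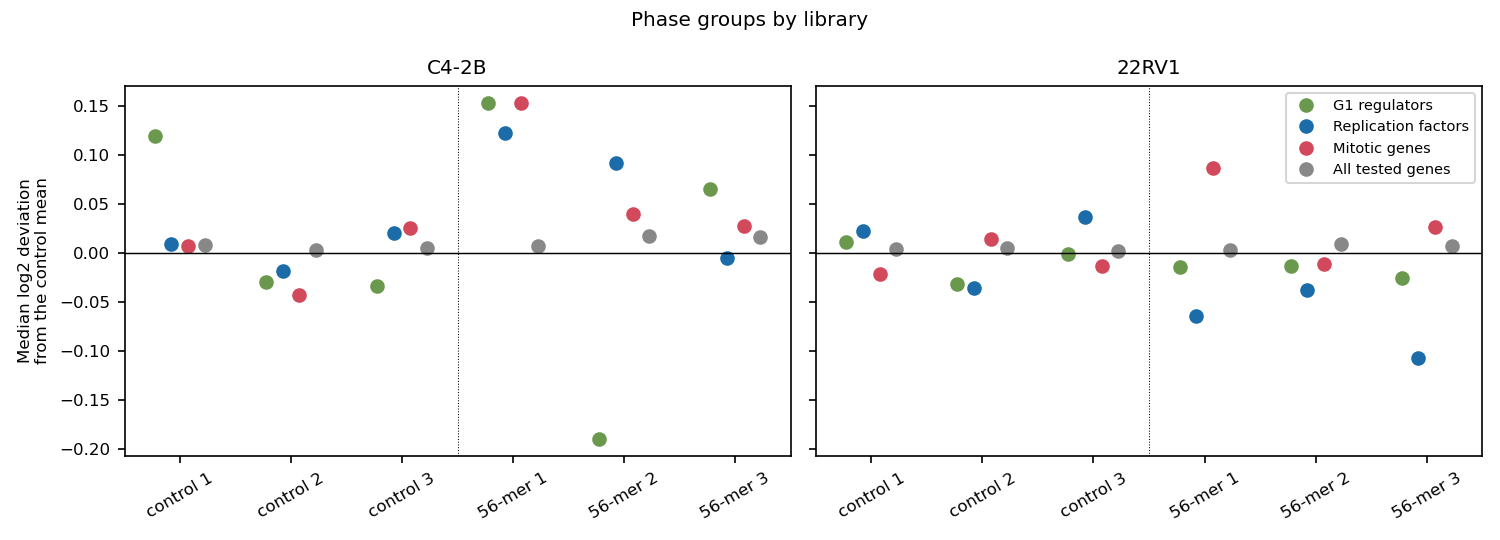
Median log2 deviation from the control mean of the line over the tested G1, replication and mitotic genes and over all tested genes (points) in each library of C4-2B (left) and 22RV1 (right), with controls to the left of the dotted line. Replication medians of the 22RV1 56-mer libraries lie at −0.038 and below, and the mitotic median is highest in 56-mer 1 of each line.

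Lists of further genes of the same phases, none of them among the 52, gave 0 genes past the threshold in either line or in the difference. Of 38 further replication genes, all tested, 29 had estimates below 0 in 22RV1 (76.3%, median −0.052) and 16 in C4-2B (median 0.025). LIG1, the ligase of lagging-strand synthesis, and WDHD1, a fork protein, had the smallest p in 22RV1, with log2 changes of −0.19 ± 0.10 and −0.20 ± 0.13. In C4-2B these were POLA2, a polymerase alpha subunit, at 0.62 ± 0.25, and POLD2, a polymerase delta subunit, at 0.16 ± 0.072. Of the further mitotic genes in C4-2B, 26 of 40 were below 0 (65%, against 51.7% of all genes tested), with a median of −0.052. The difference from the 23 was not tested. INCENP, the scaffold of the chromosomal passenger complex to which BIRC5 and AURKB belong, was at −0.49 ± 0.15 (limma adjusted p = 0.357), and the condensin subunit SMC4 at −0.30 ± 0.10 (limma adjusted p = 0.411), both apart with lower values. In 22RV1 the 41 further mitotic genes had a median of −0.0026, with MYBL2, the gene of B-MYB, at −0.19 ± 0.10 and the kinetochore gene NDC80 at 0.18 ± 0.13. The median of further G1 genes was −0.031 in C4-2B (17 genes) and 0.0052 in 22RV1 (18 genes). E2F5 and RBL2, members of the repressive E2F and pocket protein families, were at 0.31 ± 0.11 and −0.30 ± 0.17 in C4-2B, and the CDK inhibitor genes CDKN1C and CDKN2B at 0.37 ± 0.20 and 0.39 ± 0.25 in 22RV1. None of these genes passed in limma.

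In the authors' deposited table all 52 genes are listed in each line, and the smallest adjusted p among them was 1 in both lines. In the authors' deposited table the unadjusted p was under 0.05 for 5 of them in C4-2B (MCM7, CDKN1B, CDK2, BIRC5 and MCM5) and for 4 in 22RV1 (FEN1, MCM4, CENPF and PCNA).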

How the data were processed

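The analysis began from the authors' tables, a normalized one and a comparison one for each line, which cover 12 RNA sequencing libraries in 4 groups of 3. Per the labels' protocols, RNA was prepared on RNeasy columns and sequenced by Novogene. DESeq, with no version, is named in the submitters' processing notes. Aligner, counting tool, strand setting and genome build: not given in the sources used here. The deposited normalized values are a signal per gene symbol. Each is a whole multiple, to within 0.01, of a step that is constant in its library, so they are read counts that the authors divided by a size factor, separately for each line. Per the file headers, the comparison tables hold log2 fold changes with standard errors, a test score and p-values, as deposited. Each normalized table lists 60315 entries, and 1 that names no gene (0% of the reads) was left out.

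A gene was tested in a line if its normalized count reached 10 in 3 or more of the 6 libraries. Tests were made with limma 3.58.1 in R 4.3.3, with trended and robust variances, on log2(normalized count + 1), which understates changes of low genes. They were two-sided, with Benjamini-Hochberg adjustment over all genes tested. The lines were compared by the interaction, over genes that passed in both. Levels across lines are CPM of the recovered reads, plain and TMM-scaled. Alternatives were the edgeR 4.0.16 quasi-likelihood test and DESeq2 1.42.0 on recovered reads, quantile normalization, equal column totals, other filters and pseudocounts, no trend or robust variance, a lowess correction for GC content and length (GENCODE 29), and leaving out each library. The limma script was tested on simulated data. The members and lists were chosen with earlier results of these data known. Named by rule were, per group of genes and comparison, the 3 with the smallest unadjusted p (2 per line for the further lists), the 2 highest and 2 lowest ratios of control levels, and 20 genes fixed by name. Some others are named to complete a count. A marker of the luminal list is not reported here.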

Additional observations from a re-analysis of the deposited data

How the results depend on the processing

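Of 237 alternative values for 15 results (the counts past the threshold, the median changes and the median control levels), 227 kept their side of the threshold or moved by less than the spread between replicates, 10 moved by more, and none crossed the threshold. The number of cell cycle genes past an adjusted p of 0.05 was 0 in C4-2B, in 22RV1 and in their difference under every alternative run. DESeq2 gave no adjusted p for 26 of the 50 genes in C4-2B and 1 of 50 in the difference, so its counts of 0 cover the other 24 and 49. The smallest adjusted p among them was 0.0522 (MCM7 in C4-2B, DESeq2). The G1 median in 22RV1 went from −0.0167 to −0.0332 with equal column totals. With TMM scaling the median log2 control ratios were 0.801 (G1), −0.781 (replication) and −0.924 (mitotic). Leaving out 1 library moved the replication median in C4-2B to between 0.0075 and 0.0931, the G1 median in 22RV1 to between −0.0611 and 0.0080, the mitotic median in 22RV1 to between −0.0042 and 0.0681, and the mitotic control ratio to between −0.633 and −0.541. The cause was not tested. Estimates far from the threshold changed sign for 0 to 10 genes per alternative in C4-2B and 0 to 12 in 22RV1, but for none with an unadjusted p under 0.05. No paired analysis was possible because nothing in the labels ties a control library to a 56-mer library. Low read counts limit the estimates of CCND2 and NUSAP1 in both lines, and of CDK6 and CDKN2A in C4-2B.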
